A study of Homo sapiens with 53 samples.

Results

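The regions described here are the hg19 windows around 4 human genes, BAIAP2, LRRC59, ZNF219 and LINGO1, which hold CTCF peaks of the highest significance in solvent-treated cells. They are BAIAP2 (chr17:79000000-79100000), LRRC59 (chr17:48450000-48485000), ZNF219 (chr14:21550000-21575000) and LINGO1 (chr15:77900000-78120000). Every peak that overlapped a window was taken, which gave 622 of the 706206 peaks in 10 lists. The genes were chosen by their CTCF values under DMSO, so those values, and the CTCF differences that rest on them, are a description with no test. The material was HEK293T, a cell line from human embryonic kidney, treated for 72 h with BPK-25 at 30 µM or with its solvent DMSO, and binding was read by chromatin immunoprecipitation with sequencing (ChIP-seq). The parental cells gave the CTCF and MBD3 immunoprecipitates, and the TET1, TET2 and TET3 immunoprecipitates came from derived HEK293T lines, 1 for each Flag-tagged TET protein, with an antibody against Flag. The labels give 3 replicates per target and treatment, except 2 for TET2 under DMSO, but 1 list was deposited for each of the 10 combinations of target and treatment. Each list is therefore 1 pooled measurement with no replicate spread, and intervals below are 95% intervals that cover counting error only.

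CTCF is a zinc finger protein that binds a long DNA motif and, with cohesin, holds the anchors of chromatin loops. MBD3 is a core subunit of NuRD, a complex that combines nucleosome remodelling with histone deacetylation. The TET proteins oxidise 5-methylcytosine and so take part in DNA demethylation. BPK-25 is an electrophilic small molecule known from work in T cells to lower the amount of NuRD subunits. BAIAP2 encodes IRSp53, an adaptor protein of the actin cytoskeleton at membrane protrusions. LRRC59 encodes a leucine-rich repeat protein of the endoplasmic reticulum membrane. ZNF219 encodes a zinc finger transcription factor. LINGO1 encodes a neuronal transmembrane protein with leucine-rich repeats and an immunoglobulin domain.

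Promoters of 3 of the 4 genes are shown for the letters of the CTCF motif core that they hold. They come from RefSeq on GRCh38.p14, while the peaks are on hg19, so the peaks were not placed on these promoters or on exons, introns or untranslated regions. In the 250 bases before the gene start, a core of the CTCF motif (CC, 3 free letters, AGG, 1 free letter, GGC) on either strand was found in 1 of 4 BAIAP2 promoters, 0 of 1 of LRRC59, 0 of 1 of ZNF219 and 0 of 9 of LINGO1, against 4.01% of 35116 promoters. The shorter core CAGGNGGC, chosen after the promoters were read, was found in 1 of 1 promoters of LRRC59, 4 of 9 of LINGO1, 0 of 4 of BAIAP2 and 0 of 1 of ZNF219, against 11.2% of all promoters; a pair of the LINGO1 promoters overlap and share a match, so the 4 hold 3 distinct matches. A match of the longer string holds the shorter one only where the free letter before its A is C. Capitals mark the match in the 3 promoters below, which lie at chr17:81097361-81097610 on the plus strand, chr17:50397524-50397773 on the minus strand and chr15:77820333-77820582 on the minus strand.
BAIAP2: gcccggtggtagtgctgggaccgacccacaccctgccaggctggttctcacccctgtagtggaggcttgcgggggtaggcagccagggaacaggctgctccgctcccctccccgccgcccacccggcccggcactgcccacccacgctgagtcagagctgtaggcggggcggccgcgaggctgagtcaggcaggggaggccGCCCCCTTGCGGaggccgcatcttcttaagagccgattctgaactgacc
LRRC59: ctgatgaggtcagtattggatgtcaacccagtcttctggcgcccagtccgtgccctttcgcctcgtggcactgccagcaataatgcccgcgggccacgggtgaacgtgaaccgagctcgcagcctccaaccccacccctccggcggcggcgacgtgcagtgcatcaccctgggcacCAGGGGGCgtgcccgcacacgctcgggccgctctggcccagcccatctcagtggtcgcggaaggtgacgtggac
LINGO1: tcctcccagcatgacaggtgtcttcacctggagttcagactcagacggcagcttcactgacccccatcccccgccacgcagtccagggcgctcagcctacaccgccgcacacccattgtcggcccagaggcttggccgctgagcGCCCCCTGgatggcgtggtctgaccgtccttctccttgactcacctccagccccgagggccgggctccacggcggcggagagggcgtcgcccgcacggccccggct
The match starts 49 bases before the gene start in the BAIAP2 promoter, 74 in that of LRRC59 and 106 in that of LINGO1. It reads on the strand opposite to the printed one for BAIAP2 and LINGO1 and as printed for LRRC59. In the same annotation the gene bodies of BAIAP2 and AATK overlap, as do those of LRRC59 and EME1, and those of ZNF219 with ARHGEF40 and TMEM253, so a window need not belong to its named gene alone.

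At the strongest CTCF site of each window, the CTCF peak was still called under BPK-25 but was much smaller, while MBD3 at the same place was smaller by far less. The fold enrichment is the authors' value, the fragment pileup at the summit over the local background. The BAIAP2 site (chr17:79074724-79076263, summit 79075701) had a CTCF fold enrichment of 12.1 under BPK-25 and 463 under DMSO. The LRRC59 site (chr17:48474584-48475303, summit 48474948) had 10.2 under BPK-25 and 334 under DMSO. The ZNF219 site (chr14:21560049-21561421, summit 21560834) had 13.5 under BPK-25 and 428 under DMSO. The LINGO1 site (chr15:77925241-77927497, summit 77925981) had 10.2 under BPK-25 and 361 under DMSO. On this scale the 4 sites were 31.6 to 38.2 times lower under BPK-25.

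Summit pileups, solved from the fold enrichment and p-value of each summit, also gave large differences, in another order of the genes. The BAIAP2 summit was covered by 110 CTCF fragments under BPK-25 and 5220 under DMSO. The LRRC59 summit was covered by 139 under BPK-25 and 5045 under DMSO. The ZNF219 summit had 78 under BPK-25 and 4551 under DMSO, and the LINGO1 summit 87 under BPK-25 and 4532 under DMSO. The genome background, the lowest local background of a list, was 2.58 fragments in the CTCF list under BPK-25 and 3.68 under DMSO. Divided by it, the CTCF pileup was lower under BPK-25 by 33.2 times at BAIAP2 (interval 27.5 to 40.5), 25.4 times at LRRC59 (21.5 to 30.3), 40.8 times at ZNF219 (32.7 to 51.8) and 36.5 times at LINGO1 (29.5 to 45.6). On this scale ZNF219 had the largest drop and LRRC59 the smallest, with intervals that do not overlap, whereas on the fold enrichment scale ZNF219 had the smallest drop of the 4 (31.6 times) and LRRC59 had 32.8 times, so no order of the genes is read from either.

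**Figure D1:**
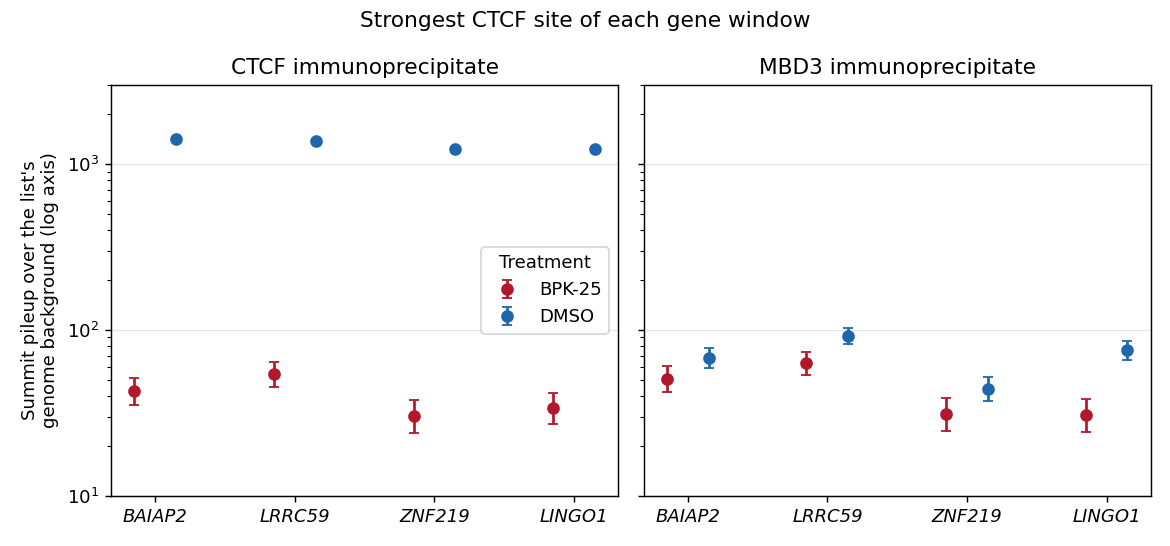
Summit pileup over the genome background of its list (log axis) at the strongest CTCF site of BAIAP2, LRRC59, ZNF219 and LINGO1, for CTCF (left) and MBD3 (right), under BPK-25 (red) and DMSO (blue), with 95% Poisson counting intervals. The CTCF points sit between 30.3 and 53.9 under BPK-25 and between 1231 and 1418 under DMSO, while the MBD3 points sit between 30.8 and 62.7 under BPK-25 and between 44.2 and 91.8 under DMSO.

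MBD3, which the choice of the genes did not use, had a peak at all 4 sites under both treatments, with a summit within 32 bp of the CTCF summit. Over all DMSO CTCF peaks MBD3 overlapped 40.2% under BPK-25 and 36.9% under DMSO. MBD3 also overlapped every other peak from rank 2 to rank 13 of the DMSO CTCF list under both treatments, so this is not particular to the 4 genes. Its fold enrichment at BAIAP2 was 13.7 under BPK-25 and 23.1 under DMSO. At LRRC59 it was 12.9 under BPK-25 and 22.1 under DMSO. At ZNF219 it was 14.1 under BPK-25 and 16.2 under DMSO, and at LINGO1 8.86 under BPK-25 and 21.8 under DMSO. All 4 values were lower under BPK-25, as were 41.3% of all MBD3 peaks shared between treatments. That share is from mostly weaker peaks: the DMSO MBD3 list had a median fold enrichment of 3.65, against 16.2 to 23.1 here. A ratio with a high DMSO value below the line is low in part by construction, so the direction is a description. The BPK-25 over DMSO ratio of the background-scaled MBD3 pileup was 0.746 at BAIAP2 (interval 0.596 to 0.931), 0.683 at LRRC59 (0.560 to 0.830), 0.705 at ZNF219 (0.529 to 0.934) and 0.408 at LINGO1 (0.313 to 0.529). The LINGO1 interval lies below those of BAIAP2 and LRRC59, and its upper bound just below the lower bound of ZNF219.

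Under BPK-25 the CTCF and MBD3 pileups at the strongest sites were close in size. The MBD3 over CTCF ratio, each over its own genome background, was 1.19 at BAIAP2 (0.913 to 1.54) under BPK-25 and 0.0479 under DMSO. At LRRC59 it was 1.16 (0.921 to 1.47) under BPK-25 and 0.0670 under DMSO. At ZNF219 it was 1.03 (0.744 to 1.43) under BPK-25 and 0.0358 under DMSO, and at LINGO1 0.912 (0.664 to 1.25) under BPK-25 and 0.0612 under DMSO. All 4 BPK-25 intervals contain 1. The same held widely: over 990 of the 1000 most significant DMSO CTCF peaks the BPK-25 ratio had a median of 1.05 with quartiles of 0.921 and 1.20. The parental lists also had nearly the same genome background under BPK-25, 2.58 fragments for CTCF and 2.57 for MBD3, and the labels give the parental cells 1 set of inputs per treatment. The part of shared background in this likeness was not tested.

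By significance the 4 CTCF peaks ranked 366 (BAIAP2), 299 (LRRC59), 620 (ZNF219) and 748 (LINGO1) of 245419 under BPK-25, against 1 (BAIAP2), 6 (LRRC59), 7 (ZNF219) and 9 (LINGO1) of 99587 under DMSO. In the same gene order, the MBD3 peaks there ranked 249, 174, 533 and 1155 of 243213 under BPK-25 and 126, 60, 610 and 109 of 82358 under DMSO. The lists differ in length, so the ranks place each site within its own list and show no change between treatments. The drop in CTCF was like that of other leading sites. The BPK-25 over DMSO ratio of CTCF fold enrichment was 0.0262 at BAIAP2, 0.0305 at LRRC59, 0.0316 at ZNF219 and 0.0282 at LINGO1. Over the other 988 shared peaks among the 1000 most significant the median was 0.0343, with quartiles of 0.0265 and 0.0427, and 24.1%, 38.8%, 42.0% and 31.0% of them had a lower ratio than the 4 sites in the order above.

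The peaks next to them in rank were of the same kind. Ranks 2, 3 and 5 of the DMSO CTCF list lay close together on chromosome 4, with summits at 8626797, 8638083 and 8632434 and fold enrichments of 205, 170 and 154. Their local background was 8.01 to 10.6 times the genome background, against 2.62 to 3.84 times at the 4 sites of the gene windows, so their fold enrichment is lower for a like pileup. Ranks 4 and 8, at chr1:225662527-225663125 and chr17:39818730-39819483, had 361 and 442. Ranks 10 to 13 had 279.6 to 400.0, and the ratio of CTCF fold enrichment over these 9 peaks ran from 0.0188 to 0.0501.

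Within each window the weight of the strongest site differed. In LRRC59 it held 98.4% of the summit fragments summed over 3 DMSO CTCF sites, and in BAIAP2 67.8% over 16 sites. In ZNF219 it held 57.3% over 7 sites and in LINGO1 43.0% over 22 sites. LRRC59 thus had a lone strong site, whose fold enrichment was 44.3 times that of the next highest (7.54), against 4.89 times in BAIAP2, 3.17 times in LINGO1 and 2.68 times in ZNF219. Of the 48 sites, 23 had a fold enrichment of at least 10: 7 in BAIAP2, 1 in LRRC59, 5 in ZNF219 and 10 in LINGO1.

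**Figure D2:**
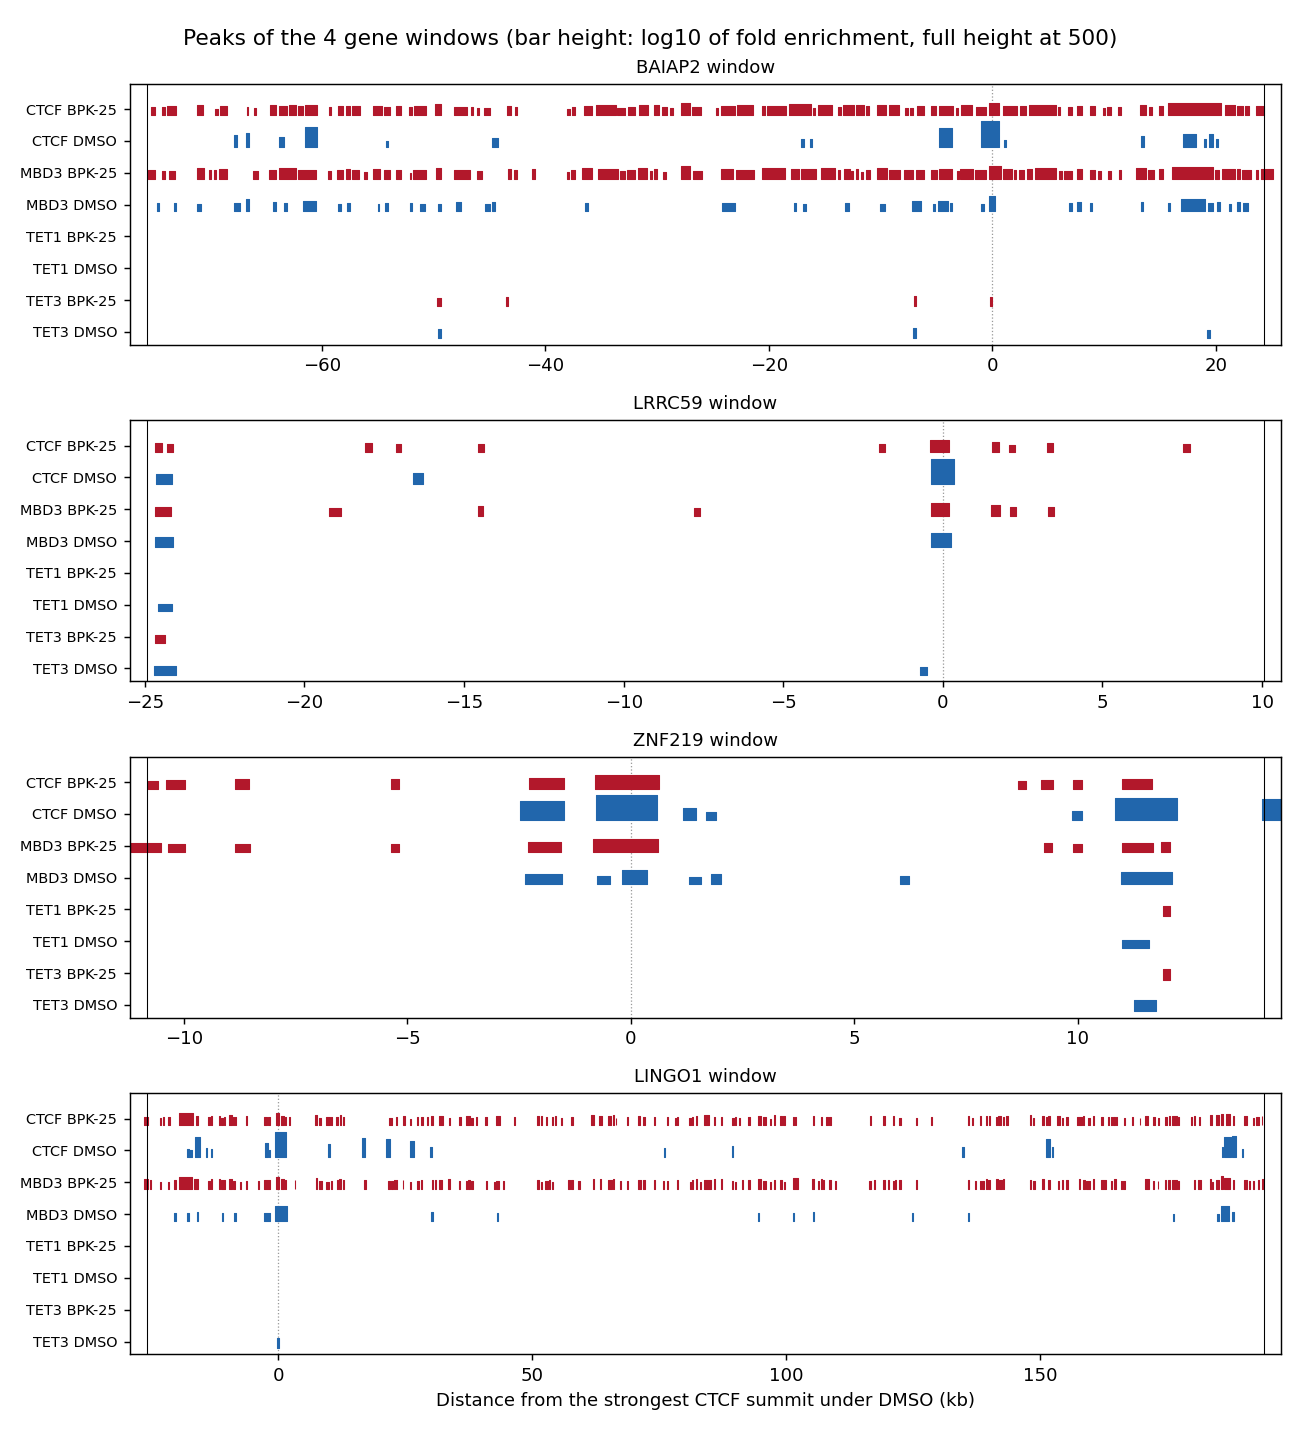
Peaks of each window by distance from the strongest DMSO CTCF summit (kb), with 1 row per target and treatment, BPK-25 (red) above DMSO (blue), and bar height growing with the log10 of fold enrichment; the TET2 lists have no peak in any window. CTCF peaks number 243 under BPK-25 and 48 under DMSO, and the 4 strongest DMSO CTCF bars stand at 0.

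A site was called retained where a BPK-25 CTCF peak overlapped it by at least 1 bp. Of the 48 DMSO CTCF sites 37 were retained (77.1%, exact interval 62.7 to 88.0), against 39.2% of all DMSO CTCF peaks. The interval takes the sites as independent, but they are neighbours in chosen windows, and the 37 lay under only 32 distinct BPK-25 peaks. It is therefore no test of a difference from 39.2%. By gene 14 of 16 were retained in BAIAP2, 2 of 3 in LRRC59, 5 of 7 in ZNF219 and 16 of 22 in LINGO1. Among sites of fold enrichment 10 or more it was 20 of 23, against 34.7% of all such peaks. These windows hold many BPK-25 peaks, and overlap is not the same as a shared summit: 21 of the 37 retained sites had a BPK-25 summit within 50 bp, and 8 of them lay under 3 wide BPK-25 peaks that each cover several sites. That count takes any summit of the BPK-25 peak. With the main summits, those of highest significance in each peak, required within 200 bp of each other, 19 of the 48 (39.6%) were matched, against 27.4% of all DMSO CTCF peaks. A value given for a site in another list is that of the main summit of the overlapping peak, unless the nearest summit is named. For CTCF under BPK-25 the main summit lay farther than 200 bp from that of the site at 18 of the 37 retained sites.

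Ratios of 0.1 or less were found among sites of high DMSO fold enrichment. Among the 37 retained sites 15 had a BPK-25 over DMSO ratio of 0.1 or less, against 25.5% of all retained peaks, and all 15 were among the 20 with a DMSO fold enrichment of at least 10, where 54.1% of such peaks overall had so low a ratio. All 20 of these strong sites were lower under BPK-25, with a median ratio of 0.0651 and a range of 0.0226 to 0.801. The lowest ratio was not at a window's strongest site but at 21575202 of ZNF219, which had 134 under DMSO. A ratio that has the DMSO value below the line falls with it by construction, so this is given as a description. The other 17 retained sites split into 6 lower and 11 higher under BPK-25, where 59.2% of all retained peaks of DMSO fold enrichment under 10 were higher. That makes 11 of the 37 higher, against 31.5% of all retained peaks. With the BPK-25 summit nearest to each site in place of the main one, the 37 again split into 26 lower and 11 higher, with 15 at 0.1 or less. The 11 higher sites had DMSO fold enrichments of at most 5.80, and 6 of them lay under the 3 wide peaks.

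**Figure D3:**
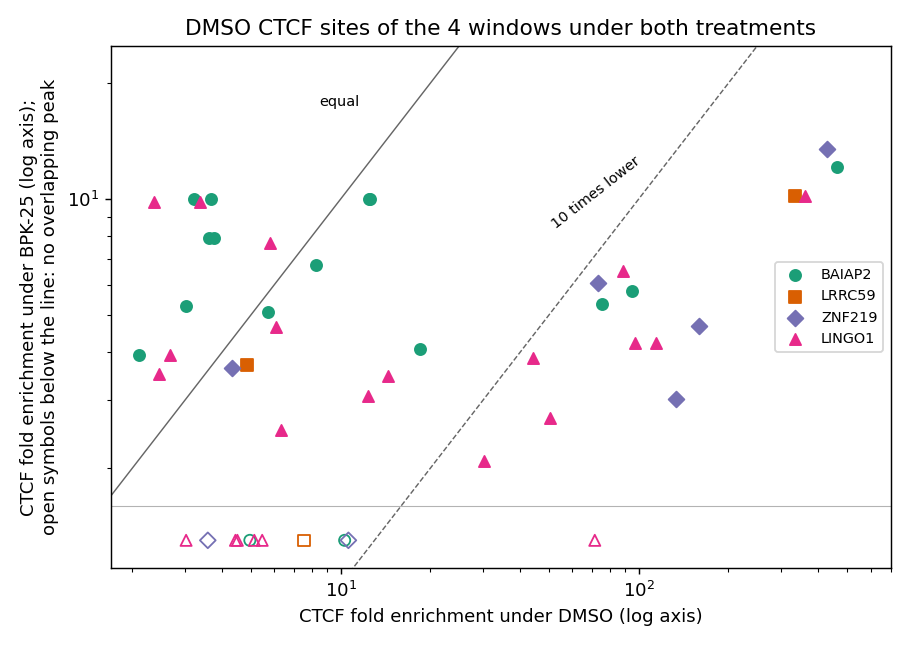
CTCF fold enrichment of the 48 DMSO CTCF sites under BPK-25 (vertical, log axis) and DMSO (horizontal, log axis) by gene, with lines for equal values and for a 10 times lower BPK-25 value; the 11 open symbols are sites with no BPK-25 peak. The 4 strongest sites lie at 10.2 to 13.5 under BPK-25 and 334 to 463 under DMSO, and sites of DMSO fold enrichment under 6 lie on both sides of equality.

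In the BAIAP2 window, an intermediate pair of sites was also much lower under BPK-25. The site with summit 79071369, 4332 bp from the strongest, had a CTCF fold enrichment of 5.33 under BPK-25 and 75.6 under DMSO, and the site at 79014778 had 5.79 under BPK-25 and 94.8 under DMSO. At the site at 79009053 it was 4.09 under BPK-25 and 18.5 under DMSO, and the site at 79007986, 10.3 under DMSO, had no BPK-25 peak. Near the end of the window the values of the treatments lay closer together. The sites at 79093731 and 79095229, with 12.5 and 12.6 under DMSO, lay under a single BPK-25 peak of 4775 bp (chr17:79091404-79096178) with 12 summits and a fold enrichment of 10.0 at its main summit, which lies 394 bp and 1104 bp from the 2 sites and gives both the same value. At the nearest BPK-25 summits, 127 bp from 79093731 and 216 bp from 79095229, the fold enrichment was 7.03 and 8.62. With these summits the BPK-25 over DMSO ratio of background-scaled pileup was 0.795 (0.549 to 1.14) for 79093731 and 0.802 (0.534 to 1.19) for 79095229, intervals that contain 1.

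MBD3 peaks were dense in the BAIAP2 window. All 7 sites of fold enrichment 10 or more overlapped an MBD3 peak under DMSO, and 5 of 7 under BPK-25. Of all such DMSO CTCF peaks 36.9% did so under DMSO and 36.1% under BPK-25. At 79014778 the MBD3 fold enrichment was 4.46 under BPK-25 and 6.23 under DMSO, and at 79071369 5.35 under BPK-25 and 6.08 under DMSO; the nearest BPK-25 summits, 12 bp and 2 bp away, had 3.91 and 4.27. At 79009053 there was no overlapping MBD3 peak under BPK-25, against 10.3 under DMSO, and at 79007986 none under BPK-25, against 3.48 under DMSO. At 79095229 it ran the other way, with 8.88 under BPK-25, 129 bp from the site, and 3.63 under DMSO. The same BPK-25 MBD3 peak covers 79093731, where the nearest MBD3 summits had 5.71 under BPK-25 and 5.62 under DMSO, 111 bp and 123 bp away. BAIAP2 had 83 MBD3 peaks under BPK-25 and 41 under DMSO, 2.02 times as many against 2.95 times in the whole lists, and was alone among the 4 windows in having more MBD3 than CTCF peaks under DMSO.

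In the ZNF219 window, 3 further strong sites flanked the strongest. The site at 21572810 had a CTCF fold enrichment of 4.70 under BPK-25 and 160.0 under DMSO, and the site at 21575202, whose summit lies just past the window's end, had 3.03 under BPK-25 and 134 under DMSO. At 21558608 it was 6.07 under BPK-25 and 73.1 under DMSO, and the site at 21562134, 10.6 under DMSO, had no BPK-25 peak. MBD3 differed less between treatments at these sites, and at 2 of them its direction depended on the summit taken. The main MBD3 summits gave 6.31 under BPK-25 and 10.1 under DMSO at 21572810, with the DMSO one 418 bp before the CTCF summit, while the nearest ones gave 6.31 under BPK-25 and 5.39 under DMSO. At 21558608 the main summits gave 5.67 under BPK-25 and 5.52 under DMSO, with the BPK-25 one 314 bp away, and the nearest ones 2.20 under BPK-25 and 5.52 under DMSO. At 21575202 it was 3.44 under BPK-25 and 4.08 under DMSO. At 21562134 MBD3 had 2.50 under DMSO and no peak under BPK-25.

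The DMSO CTCF site at 21572810 overlapped TET1 and TET3 peaks under both treatments. Under BPK-25 the CTCF peak ended at 21572503, before the TET1 and TET3 peaks, which started at 21572740 and 21572747. The BPK-25 CTCF peak there had its summit 848 bp before the DMSO summit, and its nearest summit was 533 bp away. The BPK-25 summits of MBD3, TET1 and TET3 lay within 16 bp of the DMSO CTCF summit, with fold enrichments of 6.31, 5.52 and 5.80. Under DMSO the TET1 summit lay 707 bp before it with 3.34, and the TET3 summit 342 bp before it with 9.37. TET1 and TET3 were measured in tagged lines, so these lists and the CTCF list come from different cells.

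In the LINGO1 window, the second site at 78114000, 188019 bp from the strongest, had a CTCF fold enrichment of 4.23 under BPK-25 and 114 under DMSO. At 77910047 it was 4.24 under BPK-25 and 97.2 under DMSO, and at 78112781 6.52 under BPK-25 and 88.5 under DMSO. A site of like strength was not called under BPK-25: the peak at 77942827, 71.3 under DMSO, overlapped no BPK-25 CTCF peak. An MBD3 peak of 3.49 overlapped it under BPK-25, with a summit 99 bp from that of the site. The sites at 77947514, 78077475 and 77952276 had 2.70, 3.87 and 2.09 under BPK-25 and 50.5, 44.2 and 30.2 under DMSO. At the weaker sites at 77923549 and 77936044 it was 3.46 and 3.07 under BPK-25 and 14.4 and 12.4 under DMSO.

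MBD3 in the LINGO1 window differed between treatments in where it was called. All 10 sites of fold enrichment 10 or more overlapped an MBD3 peak under BPK-25, and 5 of 10 under DMSO. Of all such DMSO CTCF peaks 36.1% did so under BPK-25 and 36.9% under DMSO. The window held 146 MBD3 peaks under BPK-25 and 18 under DMSO, 8.11 times as many against 2.95 times in the whole lists. The part of this peak density in the overlap was not tested. The 5 sites with MBD3 under BPK-25 alone (77936044, 77942827, 77947514, 77952276 and 78077475) had MBD3 fold enrichments of at most 3.68 there. At 78112781 MBD3 had 6.84 under BPK-25 and 20.0 under DMSO, with the DMSO summit 936 bp before the CTCF summit; the nearest DMSO summit, 5 bp away, had 12.4. At 77910047 it had 5.52 under BPK-25 and 3.48 under DMSO, at 78114000 4.25 under BPK-25 and 3.75 under DMSO, and at 77923549 3.88 under BPK-25 and 3.15 under DMSO.

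Of the 23 sites of fold enrichment 10 or more, 20 overlapped an MBD3 peak under BPK-25 (36.1% of all such DMSO CTCF peaks) and 18 under DMSO (36.9% of them). Over all 48 sites, 38 overlapped an MBD3 peak under BPK-25 (40.2% of all DMSO CTCF peaks) and 30 under DMSO (36.9% of them). Of the 25 with MBD3 under both treatments 13 had a lower and 12 a higher fold enrichment under BPK-25 (12 lower and 13 higher at the nearest summits), with a median ratio of 0.881 against 1.13 over all shared MBD3 peaks. The BPK-25 over DMSO ratio of MBD3 ran from 0.343 to 3.36. None reached 0.1 or less, as did 0.0178% of all shared MBD3 peaks. TET peaks were few. TET3 overlapped 3 of the 48 sites under BPK-25 (7.5% of all DMSO CTCF peaks) and 4 under DMSO (7.99%), TET1 overlapped 1 under BPK-25 (0.187%) and 2 under DMSO (3.99%), and TET2 overlapped 0 under BPK-25 (0.167%) and 0 under DMSO (0.826%).

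Of the 4 strongest sites, BAIAP2 overlapped a TET3 peak under BPK-25, with a fold enrichment of 4.65 and a summit 63 bp before that of CTCF, and none under DMSO. That TET3 peak was weak, with 13 fragments, a -log10 q of 4.14 and rank 8104 of 13360. LINGO1 overlapped a TET3 peak under DMSO, 5.97 at 59 bp after the CTCF summit, and none under BPK-25. LRRC59 overlapped none, and a DMSO TET3 peak of 3.04 lay 651 bp before its summit. ZNF219 overlapped none at its strongest site. The TET1 peak and the other TET3 peaks of the LRRC59 window lay instead at its weak CTCF site at 48450469. TET3 there had 3.04 under BPK-25 and 4.59 under DMSO, and TET1 had 2.52 under DMSO alone. The -log10 q was 1.69 for TET3 under BPK-25, 8.81 for TET3 under DMSO and 1.87 for TET1. The lowest value in the list was 1.31 for both TET3 under BPK-25 and TET1 under DMSO, so both peaks were near it. The TET1 list held 447 peaks under BPK-25 and 5951 under DMSO, so a TET1 peak under DMSO alone is not particular to this site. CTCF at that site was 3.71 under BPK-25 and 4.84 under DMSO. A TET3 overlap was not particular to the strongest sites of these genes. Among the DMSO CTCF peaks next in rank, those of ranks 2, 3 and 5 overlapped TET3 under both treatments. Ranks 10 and 11 did so under DMSO alone and rank 12 under BPK-25 alone, while ranks 4, 8 and 13 overlapped none.

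CTCF peaks absent under DMSO were many under BPK-25 in the 2 longer windows. The CTCF count was 82 under BPK-25 and 16 under DMSO in BAIAP2, and 140 under BPK-25 and 22 under DMSO in LINGO1. It was 11 under BPK-25 and 3 under DMSO in LRRC59, and 10 under BPK-25 and 7 under DMSO in ZNF219. That is 5.13 times as many in BAIAP2, 6.36 times in LINGO1, 3.67 times in LRRC59 and 1.43 times in ZNF219, against 2.46 times in the whole lists. CTCF peaks covered 54.9% of the BAIAP2 window under BPK-25 and 8.18% under DMSO, and 22.1% of the LINGO1 window under BPK-25 and 5.46% under DMSO. They covered 7.41% of the LRRC59 window under BPK-25 and 4.38% under DMSO. In ZNF219 the coverage was 18.7% under BPK-25 and 18.1% under DMSO. Of the 243 BPK-25 peaks 207 (85.2%) overlapped no DMSO CTCF peak, near the 83.3% of the whole list.

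The new peaks had fold enrichments of 2.08 to 10.2. The median was 3.61 over all new peaks of the BPK-25 list, and in the windows the medians were 4.47 in BAIAP2, 3.33 in LRRC59, 3.80 in ZNF219 and 3.33 in LINGO1. The most significant in BAIAP2 had summits at 79026184, 79048428 and 79073138, with fold enrichments of 8.36, 10.2 and 6.96. In fold enrichment alone, the one at 79048428 was as high as the strongest LRRC59 and LINGO1 sites under BPK-25. Its summit was covered by 52 fragments, against 139 at the LRRC59 site and 87 at the LINGO1 site. By significance it ranked 2533 in the BPK-25 CTCF list, against 299 for LRRC59 and 748 for LINGO1. The most significant new peaks of LRRC59, at 48476621, 48478308 and 48456940, had fold enrichments of 4.90, 3.77 and 4.16. Those of ZNF219 at 21552175, 21555550 and 21570162 had 4.91, 4.30 and 3.65. Those of LINGO1 at 77992017, 77916737 and 78110865 had 4.91, 6.04 and 5.34. Every one of the 12 but 48456940 had a BPK-25 MBD3 peak over it, with a summit at most 71 bp away.

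Most of the new CTCF peaks overlapped an MBD3 peak under BPK-25. An MBD3 peak under BPK-25 lay over 177 of the 207 (85.5%), against 64.9% of new peaks in the whole list, and a DMSO MBD3 peak over 33 (15.9%), against 11.3%. Of these 33 BAIAP2 held 24, and without it the DMSO MBD3 share was 9 of 136 (6.62%). By gene the BPK-25 MBD3 share was 93.0% of 71 in BAIAP2, 50% of 8 in LRRC59, 83.3% of 6 in ZNF219 and 83.6% of 122 in LINGO1. In the same order, BPK-25 MBD3 peaks covered 55.4%, 7.09%, 18.7% and 24.4% of the windows. The part of this coverage in the overlap was not tested. The MBD3 list itself had 247 peaks in the windows under BPK-25 and 68 under DMSO, and 75.3% of the 247 overlapped no DMSO MBD3 peak, against 78.2% of the whole list.

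Across every CTCF peak of the windows, the pairing with MBD3 had a narrow range under BPK-25 and a wide one under DMSO. An MBD3 peak of the same treatment was found at 211 of the 243 BPK-25 CTCF peaks (86.8%), against 69% of the whole list. The MBD3 over CTCF ratio of background-scaled pileup at these 211 had a median of 1.06 and quartiles of 0.925 and 1.24. At the 30 DMSO pairs the median was 0.314 and the quartiles were 0.0675 and 0.850. The whole lists gave a median of 1.03 under BPK-25 and 0.428 under DMSO. The DMSO ratio was lowest at strong sites such as 21575202 of ZNF219 and 78114000 of LINGO1, at 0.0334 and 0.0344. It has the CTCF pileup below the line, so it falls with the strength of a CTCF site by construction.

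**Figure D4:**
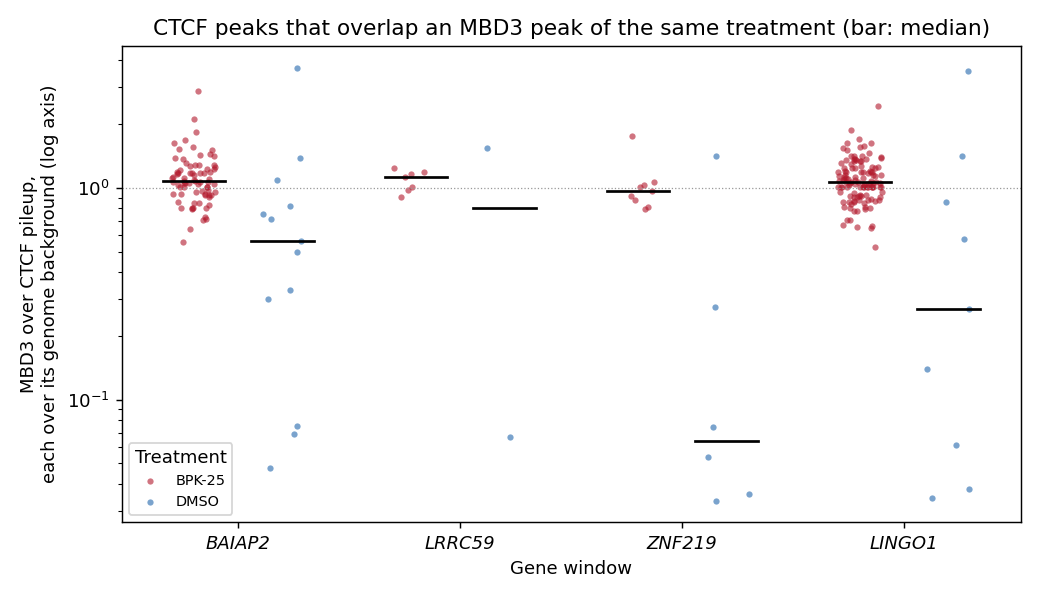
MBD3 over CTCF summit pileup (log axis), each over the genome background of its list, at every CTCF peak of a window that overlaps an MBD3 peak of the same treatment, with BPK-25 (red, 211 peaks) left of DMSO (blue, 30 peaks) and a bar at each median. The BPK-25 points gather around 1, with gene medians of 0.964 to 1.13, while the DMSO medians run from 0.0642 in ZNF219 to 0.803 in LRRC59. The LRRC59 DMSO median is of only 2 values, 0.0670 and 1.54.

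The limits of the windows left out some strong peaks. The nearest DMSO CTCF peak before the BAIAP2 window, 2.23 kb outside it at summit 78997771, had a fold enrichment of 180.5, more than any BAIAP2 site but the strongest, while the first inside had 10.3. At the end of that window the peaks inside and outside had 3.66 and 2.89. Around LRRC59 the peaks outside had 10.0 and 4.29, and those inside 4.84 at the start and 334 at the end, where the strongest site is the last. ZNF219 had 3.90 and 42.2 outside and 73.1 and 134 inside, the last with its summit 0.202 kb past the edge. LINGO1 had 53.9 and 4.07 outside and 3.38 and 3.03 inside.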

How the data were processed

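ChIP-seq of CTCF, MBD3, TET1, TET2 and TET3 under BPK-25 and DMSO is represented by 10 peak lists. Per the submitters' processing notes the build is hg19 and the tools include MACS2 2.1.2, a peak caller, and Bowtie2 2.3.4, an aligner; the calling parameters were not given there. Because the labels name every list for all replicates of a group, peak calling was taken to be on pooled replicates; TET2 under DMSO has 2 labelled replicates. The authors deposited a fold enrichment for each summit, the ratio of its pileup to the local background with 1 added to each. They also deposited the p-value and the q-value of each summit as -log10, and its offset in the interval. The lists hold summits at q-values of 0.05 or less, and no read totals, so depth per sample is unknown.

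From these values, touching or overlapping rows became 1 peak, which took the values of its summit of highest -log10 q. The pileup in fragments and the local background were solved from the fold enrichment and the Poisson p-value; 100% of pileups under 200 fell within 0.02 of a whole number in every list, and the solution was checked on simulated data. The genome background is the lowest local background in a list. Shares have exact Clopper-Pearson intervals, pileups exact Poisson intervals, and pileup ratios exact conditional binomial intervals, all at 95% and for counting error only, since PCR copies are not independent molecules. With 1 pooled list per group no test between treatments was run. In each window the strongest DMSO CTCF site was named, then every other of fold enrichment 10 or more, the 3 most significant BPK-25 CTCF peaks that overlap no DMSO CTCF peak, the leading MBD3 and TET peaks, and the peaks at the window's edges and next in rank. Alternatives changed the -log10 q minimum, merging, overlap, summit choice, scale, ranking and window width. The genes, windows and lists were chosen with earlier results of these data known. Python 3.11.15, numpy 2.4.6, pandas 2.3.3, scipy 1.17.1 and matplotlib 3.10.9 were used.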

Additional observations from a re-analysis of the deposited data

How the results depend on the processing

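No paired analysis was possible because each list pools the replicates of its group, and for the same reason no replicate could be left out. Under the 4 alternatives that bear on it, the BPK-25 over DMSO ratio at the 4 strongest sites stayed below 1 for CTCF and for MBD3. On the scale of pileup over genome background the BPK-25 over DMSO ratio was 0.0394 for CTCF at LRRC59, 0.0245 for CTCF at ZNF219 and 0.746 for MBD3 at BAIAP2. Counts of weak peaks depended most on the -log10 q minimum. At a minimum of 5 the windows held 145 CTCF peaks under BPK-25, 24 MBD3 peaks under DMSO, 0 TET1 peaks under DMSO, and 2 TET3 peaks under BPK-25 against 4 under DMSO; 62.5% of DMSO CTCF sites were retained, 23 overlapped BPK-25 MBD3, 1 BPK-25 TET3 and 0 DMSO TET1. At a minimum of 10 they held 64 CTCF and 77 MBD3 peaks under BPK-25 and 15 MBD3 peaks under DMSO, 0 TET1 peaks under BPK-25 and 0 under DMSO, and 0 TET3 peaks under BPK-25 against 2 under DMSO. There 14 sites (38.9%) were retained, 9 of them with a ratio of 0.1 or less, 15 overlapped MBD3 under BPK-25 and 14 under DMSO, 0 TET1 under BPK-25 and 0 under DMSO, and 0 TET3 under BPK-25 against 1 under DMSO. A higher minimum also removes DMSO CTCF sites, so the retained shares at 5 and 10 are of fewer sites than in the main setting. With intervals within 500 bp merged the windows held 141 CTCF and 138 MBD3 peaks under BPK-25. With at least 50% of a site covered 62.5% were retained, 9 with a ratio of 0.1 or less, and the sites overlapping TET1 numbered 0 under BPK-25 and 1 under DMSO, and TET3 1 under BPK-25 and 1 under DMSO. With summits within 200 bp 19 sites (39.6%) were retained, against 27.4% of all DMSO CTCF peaks, and 8 had a ratio of 0.1 or less. In that setting 24 matched MBD3 under BPK-25, and 1 matched TET1 and 2 TET3 under DMSO. For the other alternatives no share over all peaks is given. Their retained shares are therefore not to be set against the 39.2% of the main setting. Ranked by fold enrichment the strongest sites of BAIAP2, LRRC59 and LINGO1 stood at 776, 2059 and 2068 for CTCF under BPK-25, and those of BAIAP2, LRRC59, ZNF219 and LINGO1 at 11, 117, 21 and 71 for CTCF under DMSO. For MBD3 in the same gene order the ranks were 384, 563, 332 and 4479 under BPK-25 and 314, 380, 1144 and 397 under DMSO. The lists with a higher minimum hold fewer peaks by construction, and the cause of the other shifts was not tested. Few fragments lie behind the TET values: TET summits in the windows were covered by 12 to 21 fragments under BPK-25 and 8 to 31 under DMSO. The genome background was 1.05 to 1.75 fragments in the BPK-25 lists and 1.25 to 1.85 in the DMSO lists of the TET proteins.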

Other observations

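The BAIAP2 window held TET3 peaks away from its CTCF sites. A TET3 peak with its summit at 79068824 under BPK-25 and 79068806 under DMSO had fold enrichments of 6.45 under BPK-25 and 6.90 under DMSO, the highest TET3 values of the window, and lay 2545 bp and 2563 bp from the nearest DMSO CTCF summit. A TET3 peak at 79026051 under BPK-25 and 79026214 under DMSO had 3.97 under BPK-25 and 4.48 under DMSO. These lay 4528 bp and 4691 bp from the nearest DMSO CTCF summit, but beside the most significant of the new BPK-25 CTCF peaks of the window, at 79026184, where MBD3 had 8.79 under BPK-25 and 2.42 under DMSO. The fourth TET3 peak under BPK-25, at 79032282, had 4.31 and lay 905 bp from a weak CTCF site, and the third under DMSO, at 79095005, had 3.34.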
